A study of Mus musculus with 8 samples.

Results

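Heat shock proteins are molecular chaperones that bind unfolded or nascent proteins and help them fold, cross membranes or reach a protease. Hsp70 proteins cycle on and off their clients with ATP, DnaJ (Hsp40) cochaperones deliver the clients and trigger ATP hydrolysis, and nucleotide exchange factors reset the cycle. Hsp90 proteins act later, on kinases, steroid receptors and other near-native clients. Heat shock factor 1 (HSF1) drives the stress-inducible members after heat or proteotoxic damage, through heat shock elements, which are alternating copies of a short unit in their promoters. In skin these proteins are made by keratinocytes, fibroblasts and the muscle beneath, in amounts that change with wounding and handling.

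The members were genes of the deposited table with symbols patterned as Hsp70, Hsp110, Hsp90, small heat shock, Hsp60 or Hsp10 genes. DnaJ symbols of class A, B or C were also taken, and Hsf1, Hsf2, Bag3 and Ahsa1 were added. The pattern for small heat shock genes also took in Hspbp1 and Hspbap1, which are not small heat shock genes. The rule matched 75 of 24612 genes, and 73 of these reached the floor of 10, in 2 or more libraries. Dnajb13 and Hspb9 did not pass. Both were at 0 in some libraries, and Hspb9 had a value only in PBS 3, at 18.8. Among the 73, Hspd1-ps4 is a pseudogene of the mitochondrial Hsp60 gene.

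RNA was sequenced from skin homogenates of male C57BL/6J mice in 3 groups, with treatment starting at 6 weeks of age. The 2 PBS libraries came from mice injected under the skin with 0.1 mL of phosphate-buffered saline, and the 3 bleomycin libraries from mice injected the same way with 0.1 units of bleomycin, a DNA-damaging drug used to induce skin fibrosis. The 3 celastrol libraries came from mice given celastrol, a plant triterpenoid known as an activator of HSF1 and an inhibitor of Hsp90 function in cultured cells, daily into the peritoneum at 1 or 2 mg/kg. All source labels give day 21. Left unsaid in the labels are the dose of each celastrol mouse, whether these mice were also given bleomycin, how long after the last injection skin was taken, and that each library is a separate animal, so the p-values below measure the spread between these libraries. No gene was deleted or added in any group.

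The values are normalized, on a linear scale, and library sums lay between 22917554 and 26381997. Estimated depth ran from 14900000 reads in Celastrol 3 to 37100000 in Celastrol 5. Celastrol 2 stood apart on principal component 1, which held 32.7% of the variance, with a score of 237.5 against -57.3 to -3.63 in the others. Summed skeletal muscle markers (15 of 15 measured) were 97442 to 126342 in PBS, 125059 to 211602 in bleomycin and 226113 to 319893 in celastrol libraries, and 7 of the 15 passed as higher in celastrol than in PBS. Summed fibroblast markers (8 of 8 measured) were 353381 to 762180 in PBS, 31683 to 105568 in bleomycin and 29698 to 76121 in celastrol libraries. Epidermal markers overlapped between groups, at 253053 to 533572 over all 8 libraries. The part of these differences in any value below was not tested, and in homogenized tissue fewer cells of a type and less RNA per cell cannot be told apart.

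Promoter sequences are shown for 2 stress-inducible genes with much sequence in common and for a pair that shares 1 promoter region. Hspa1a and Hspa1b encode the major stress-inducible Hsp70 from neighbouring genes on the minus strand of chromosome 17. In RefSeq GRCm38.p6 the 250 bases before their starts (chr17:34972157-34972406 and chr17:34959239-34959488, both minus strand) are 98.8% identical and differ at 3 positions. They are shown 5′ to 3′, with capitals marking a pair of heat shock units facing each other, GAANNTTC, found at the same place in both.
Hspa1a: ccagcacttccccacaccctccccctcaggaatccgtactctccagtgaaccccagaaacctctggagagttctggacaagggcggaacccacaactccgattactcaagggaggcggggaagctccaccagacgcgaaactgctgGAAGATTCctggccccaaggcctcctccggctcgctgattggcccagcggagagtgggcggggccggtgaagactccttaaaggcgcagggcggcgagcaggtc
Hspa1b: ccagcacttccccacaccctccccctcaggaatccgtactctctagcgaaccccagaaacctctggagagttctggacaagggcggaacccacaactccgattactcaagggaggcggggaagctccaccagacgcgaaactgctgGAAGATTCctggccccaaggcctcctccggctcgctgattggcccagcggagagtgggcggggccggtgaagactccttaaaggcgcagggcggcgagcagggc
Hspd1 and Hspe1, which encode Hsp60 and Hsp10 of the mitochondrial folding chamber, are transcribed away from each other from a shared stretch of chromosome 1. The 30 bases at chr1:55088053-55088082, read on the plus strand, hold a longer run of alternating units, marked in capitals.
Hspd1 and Hspe1: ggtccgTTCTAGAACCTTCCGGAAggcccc

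A pair of facing units (GAANNTTC or TTCNNGAA, each its own reverse complement) was looked for from 250 bases before to 50 bases after the start. It was present for 16 of the 59 members with a RefSeq window (27.1%), against 17% of 27025 genes. A run of 3 units, GAANNTTCNNGAA or its reverse complement TTCNNGAANNTTC, was present for Hspd1, Hspe1, Hsph1 and Dnajb6, which is 6.78% of members against 0.662% of all genes. These longer runs contain the shorter pairs. A match describes letters only, and no match says nothing of HSF1 binding.

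No member passed the threshold in any comparison. In the limma fit, with p-values adjusted over 23185 genes by Benjamini-Hochberg, 0 of 73 members had an adjusted p under 0.05 for bleomycin against PBS (0.677% of all genes passed), for celastrol against PBS (1.37%) or for celastrol against bleomycin (0%). At an unadjusted p under 0.05 there were 4 members higher and 0 lower in bleomycin than in PBS, 13 higher and 2 lower in celastrol than in PBS, and 1 higher and 0 lower in celastrol than in bleomycin. Over all genes those shares were 6.82% (3.62% higher and 3.2% lower), 12% (6.13% and 5.91%) and 3.87% (1.38% and 2.49%). Libraries of celastrol lay wholly above those of PBS for 19 of 73 members and wholly below for 6, where 13.2% and 13.7% of all genes did so. The same counts were 12 and 6 for bleomycin against PBS (12% and 11.6% of all genes) and 7 and 1 for celastrol against bleomycin (4.13% and 4.59%). Both treatments are compared with the same PBS libraries, so their changes are not independent.

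The median log2 change of the members was 0.07 for bleomycin against PBS, 0.05 for celastrol against PBS and 0.09 for celastrol against bleomycin, beside -0.00072, -0.07 and -0.04 over all genes. With every library scaled to the same sum, the medians against PBS and bleomycin in celastrol were -0.06 and -0.03, and those of all genes -0.17 and -0.16. Summed over the 73 members, the value was 143150 and 146832 in PBS, 146756, 177935 and 169237 in bleomycin, and 178128, 176679 and 189327 in celastrol libraries. Bleomycin 2 was at the level of PBS, and Celastrol 3 lay just below Bleomycin 3. As a percentage of the library sum, the members made up 0.701% to 0.718% in celastrol libraries, below Bleomycin 3 (0.738%) and Bleomycin 4 (0.73%) and above Bleomycin 2 (0.64%) and PBS (0.612% and 0.613%).

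**Figure D1:**
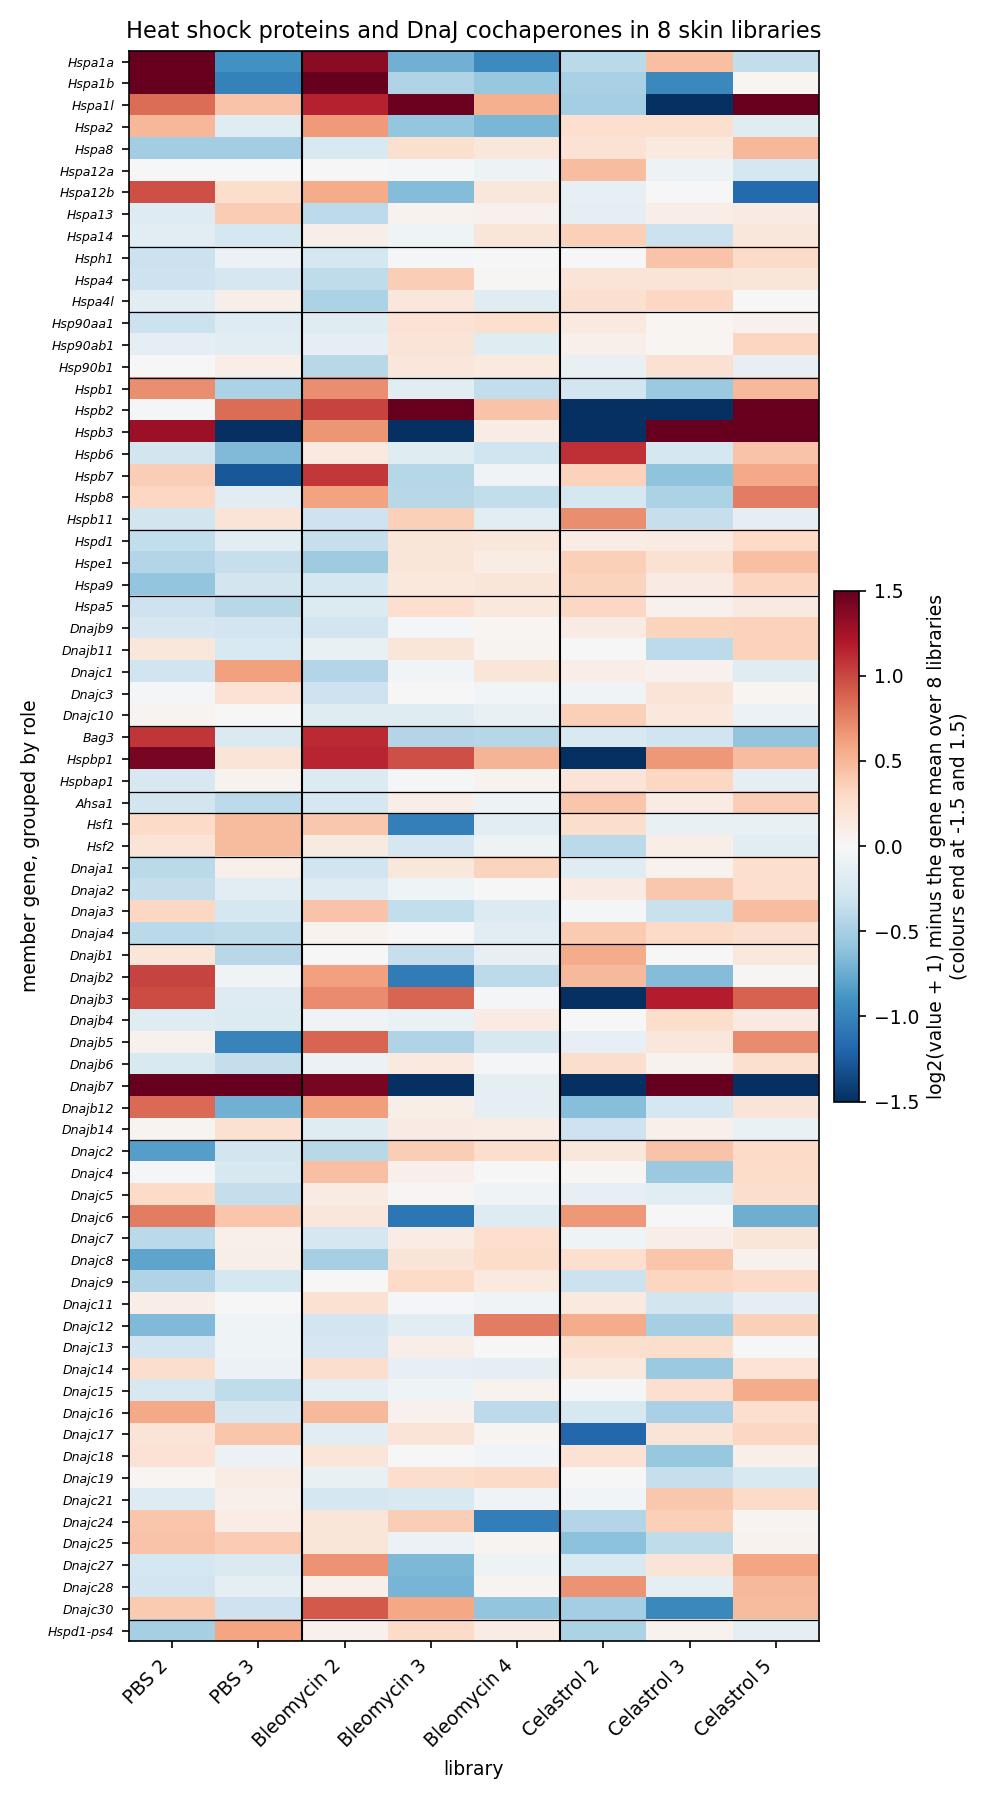
Log2 value of each of the 73 members in each of the 8 libraries relative to the member's mean over all libraries, ordered by role, with a colour scale in log2 units that is cut off at its ends. PBS 2 and Bleomycin 2 share high values of Hspa1a, Hspa1b and Bag3, while Hspa8 and Hspa9 are lowest in PBS.

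Hspa8, the constitutive cytosolic Hsp70 that folds new proteins and uncoats clathrin, had the smallest p of all members. Its gene lies at chr9:40800984-40810087 (mm10, plus strand). The values were 17030.3 and 17034.9 in PBS, 20892 in Bleomycin 2, 28825 and 27507 in Bleomycin 3 and 4, and 28546, 27202 and 34677 in Celastrol 2, 3 and 5. Every bleomycin and celastrol library was above both PBS libraries, and bleomycin and celastrol overlapped. The log2 change was 0.82 ± 0.19 (SE) in celastrol against PBS (95% interval 0.39 to 1.24, 1.76-fold, adjusted p = 0.078) and 0.58 ± 0.19 in bleomycin against PBS (adjusted p = 0.368). Neither passed. In the limma fit without Bleomycin 2 the celastrol change was called (adjusted p = 0.0367), and with library weights the bleomycin change of 0.66 was (adjusted p = 0.0456). Other alternatives gave weaker changes. In limma without Celastrol 5 the celastrol change was 0.71 (adjusted p = 0.195), and with quantile normalization it was 0.59. Without Bleomycin 3 the bleomycin change was 0.49 (limma, adjusted p = 0.87). Of the 75-base windows of the Hspa8 transcripts 33% occur in other genes, mainly pseudogenes, so some of its reads may be assigned elsewhere.

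Among the Hsp70 genes Hspa14, Hspa13, Hspa12a, Hspa12b, Hspa1a, Hspa1b, Hspa1l and Hspa2, only Hspa14 had bleomycin libraries wholly above PBS, as Hspa8 did. None of them had celastrol libraries wholly above PBS. Hspa14, a ribosome-bound Hsp70, was 537 ± 27.6 (SD, n = 2) in PBS, 652 ± 55.2 (n = 3) in bleomycin and 664 ± 155 (n = 3) in celastrol, with celastrol overlapping PBS. Hspa13 and Hspa12a overlapped in every comparison. Hspa12b, an endothelial member, was 207 and 339 in PBS and 76.3 to 172 in celastrol libraries, without overlap (adjusted p = 0.468). Hspa1l and Hspa2, known from testis, overlapped between all groups, and Hspa1l was listed near 0 in Celastrol 3, with 71.1% of its windows found in other genes.

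Stress-inducible Hsp70 varied most between libraries: among members with no library at or near 0, Hspb7 followed Hspa1b (7.13-fold between its highest and lowest library) and Hspa1a (5.69-fold). Hspa1a was 1146 in PBS 2 and 210 in PBS 3, then 1002, 239 and 201 in Bleomycin 2, 3 and 4, and 298, 539 and 305 in Celastrol 2, 3 and 5. Hspa1b was 1891 in PBS 2 and 298 in PBS 3, then 2124, 442 and 408 in bleomycin, and 433, 308 and 617 in celastrol libraries. Both genes were thus high in PBS 2 and Bleomycin 2 and low in the other PBS and bleomycin libraries, and no celastrol library reached that level.

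Of the 75-base windows, 61.7% for Hspa1a and 55.8% for Hspa1b occur in other genes, mostly in each other, so their reads cannot be fully told apart. Their sum was 3037 in PBS 2 and 508 in PBS 3, 3126, 680 and 610 in bleomycin, and 730, 847 and 922 in celastrol libraries. In celastrol the sum was above PBS 3 and below PBS 2 in each library. The Hspa1b to Hspa1a ratio was 1.42 to 2.12 in 7 libraries and 0.571 in Celastrol 3.

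The log2 change in celastrol against PBS was -0.42 ± 0.76 (SE) for Hspa1a (interval -2.11 to 1.27, adjusted p = 0.876) and -0.79 ± 0.80 for Hspa1b (interval -2.56 to 0.99, adjusted p = 0.762). For Hspa1a the interval spans 0.231 to 2.41 times the PBS level, so a fall or a rise within that range is compatible with these values. PBS 2 decided the sign, since without it the changes were 0.80 and 0.54. In bleomycin against PBS the changes were -0.43 ± 0.76 and -0.05 ± 0.80, and without PBS 2 they were 0.79 and 1.28.

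Bag3, which releases clients from Hsp70 and carries them to autophagy, and Hspb1, the small heat shock protein Hsp25 of keratinocytes, had the same pair of high libraries. Bag3 was 1655 in PBS 2 and 1718 in Bleomycin 2, and 524 to 680 in the other 6 libraries. Its log2 change was -0.80 ± 0.48 in celastrol against PBS (adjusted p = 0.571), and -0.16 without PBS 2, and -0.34 ± 0.48 in bleomycin against PBS (adjusted p = 1), and 0.30 without PBS 2. Hspb1 was 1618 in PBS 2 and 1615 in Bleomycin 2, and 676 to 1396 in the other libraries, the highest of these being Celastrol 5. It had a change of -0.24 ± 0.43 in celastrol against PBS, or 0.35 without PBS 2, and 46.4% of its windows occur in the pseudogene Hsp25-ps1.

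Across the members, PBS 2 and Bleomycin 2 were the top pair of libraries for 11 of 73 genes (Bag3, Dnajb12, Dnajb2, Dnajc14, Dnajc16, Hspa12b, Hspa1a, Hspa1b, Hspa2, Hspb1 and Hspbp1), where 9.96% of all genes showed this pair. Immediate early genes respond to many stimuli within minutes, and their sum over 16 genes was 27057 in Bleomycin 2, 15399.5 in PBS 2 and 8884 to 14399 in the other 6 libraries. Gene by gene the pair was on top for 3 of the 16 (Junb, Jund and Klf4), and Fos, at 237 in PBS 2, was not among them. Leaving out PBS 2 and Bleomycin 2 together gave 0 members past the threshold in every comparison (limma). The part of the immediate early response in these values was not tested.

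**Figure D2:**
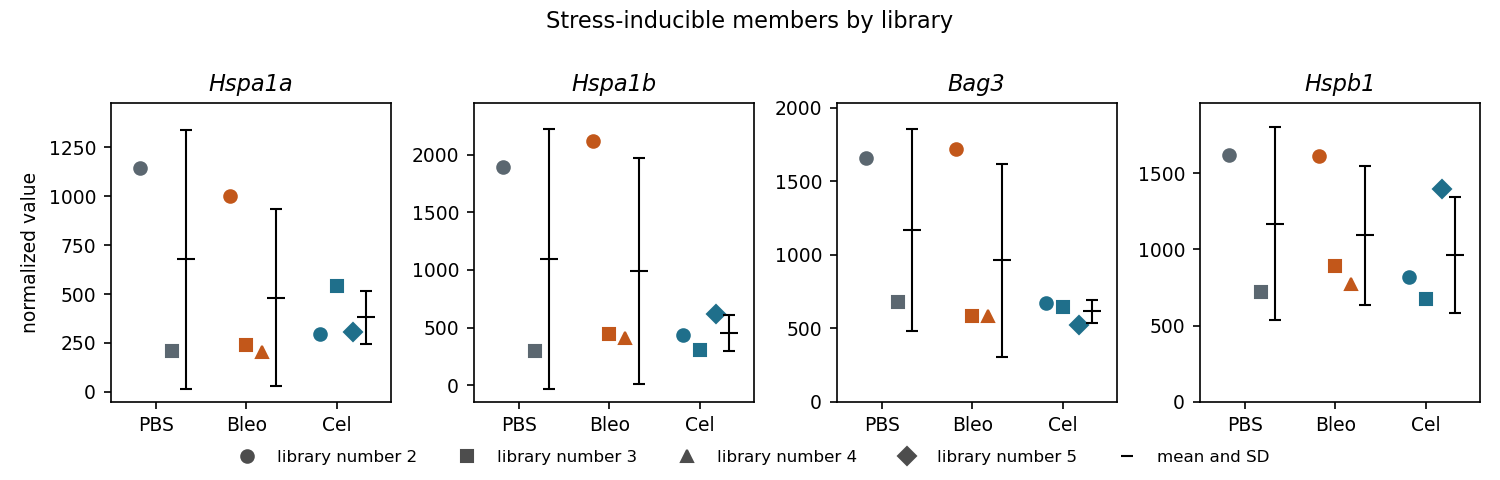
Deposited normalized value (linear axis) of Hspa1a, Hspa1b, Bag3 and Hspb1 in each library, with a point per library (its shape gives the library number) and bars for the group mean and SD. PBS 2 and Bleomycin 2 lie far above the rest for Hspa1a, Hspa1b and Bag3, and no celastrol point of these genes reaches that pair. For Hspb1, Celastrol 5 (1396) lies closer to the pair than the other libraries do.

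All 3 mitochondrial chaperone genes had celastrol libraries wholly above PBS, as 13.2% of all genes did, and none passed. Hspa9 (mortalin) pulls proteins through the inner membrane and hands them to the folding chamber of Hspd1 and its lid Hspe1. Hspa9 was 6743 and 8428 in PBS, 8500, 11386 and 11588 in bleomycin, and 12783, 11123 and 12714 in celastrol libraries. The change in celastrol was 0.69 ± 0.19 (interval 0.28 to 1.11, 1.62-fold, adjusted p = 0.135).

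Hspe1 was 674 and 719 in PBS, 629, 1031 and 985 in bleomycin, and 1167, 1070 and 1244 in celastrol libraries. Its celastrol libraries were above all others, with a change against PBS of 0.73 ± 0.25 (1.66-fold, adjusted p = 0.241) and against bleomycin of 0.43 ± 0.22 (adjusted p = 0.975), or 0.20 without Bleomycin 2. Hspd1 was 3982 and 4572 in PBS, 4076, 5852 and 5817 in bleomycin, and 5594, 5607 and 6376 in celastrol libraries. Its change against PBS was 0.45 ± 0.19 (1.37-fold, adjusted p = 0.376), and Bleomycin 2 was again at the PBS level. Of the Hspd1 windows 31% occur in other genes, mainly the pseudogene Hspd1-ps3. Both genes that share the element shown above had PBS and Bleomycin 2 as their 3 lowest libraries. Summed muscle markers were also highest in celastrol libraries. In that sum Bleomycin 2, at 211602, lay above PBS (126342 and 97442) and above Bleomycin 3 and 4 (125059 and 136517). The part of muscle in the Hspd1 and Hspe1 values was not tested.

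Of 10 mitochondrial proteases and chaperones outside the members (such as Lonp1 and Trap1), 0 passed as higher and 0 as lower in each comparison (limma). In each, 0 were under an unadjusted p of 0.05. In celastrol against PBS, 8 had a fitted change above 0 and 2 below, and their median log2 change was 0.09. Spg7, a subunit of an inner membrane protease, had their smallest p, with a change of -0.60 ± 0.36 (adjusted p = 0.564).

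In the endoplasmic reticulum, Hspa5 (BiP), the Hsp70 that binds nascent secretory proteins and holds the stress sensors inactive, was also lowest in PBS. It was 6974 and 6529 in PBS, 7528, 10315 and 9722 in bleomycin, and 10792, 9108 and 9549 in celastrol libraries. Both treated groups were wholly above PBS, with changes of 0.54 ± 0.18 in celastrol (1.45-fold, adjusted p = 0.23) and 0.43 ± 0.18 in bleomycin (adjusted p = 0.624).

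Dnajb9 (ERdj4), a BiP partner in disposal of misfolded proteins, was 1208 and 1232 in PBS, 1218 to 1501 in bleomycin, and 1609 to 1867 in celastrol libraries, wholly above both other groups. Dnajc10 (ERdj5), a reductase that opens wrong disulfides, was wholly lower in bleomycin (1642 to 1729) than in PBS (1878 and 1917) and in celastrol (1762 to 2396). Dnajb11, Dnajc1 and Dnajc3 overlapped in every comparison, and Hsp90b1 (Grp94) was 15636 ± 710 (SD, n = 2) in PBS, 14916 ± 3136 (n = 3) in bleomycin and 15086 ± 2143 (n = 3) in celastrol. Of 6 BiP and partner genes, 2 lay wholly above PBS in celastrol, where 13.2% of all genes did so. With so few genes, the count cannot be told apart from that share. Of 20 other folding and unfolded protein response genes of the compartment 0 passed in limma. At an unadjusted p under 0.05, 3 were lower and 0 higher in celastrol than in PBS (5.91% and 6.13% of all genes). Celastrol libraries lay wholly above PBS for 4 (Canx, Pdia3, Pdia4 and Creld2) and wholly below for 3 (13.2% and 13.7% of all genes). Serpinh1 (Hsp47), the collagen chaperone of fibroblasts, had the smallest p of the 20 in celastrol against PBS. It was 4001 and 1679 in PBS, 334 to 1004 in bleomycin and 176 to 543 in celastrol libraries. Its change in celastrol was -2.81 ± 0.60 (adjusted p = 0.0534), beside the fall in fibroblast markers given above.

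**Figure D3:**
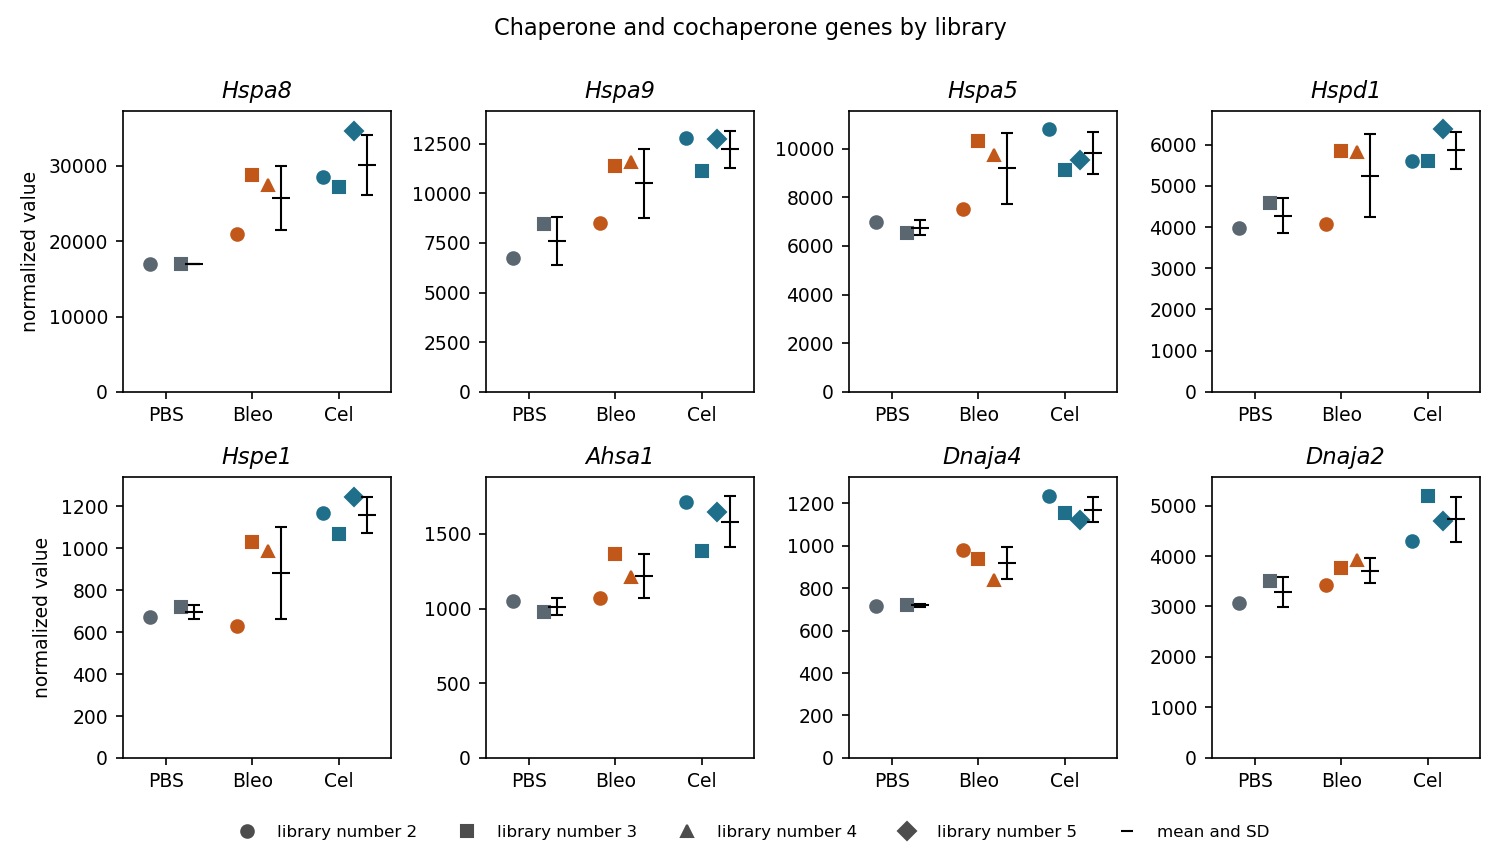
Deposited normalized value (linear axis from 0) of Hspa8, Hspa9, Hspa5, Hspd1, Hspe1, Ahsa1, Dnaja4 and Dnaja2 in each library, with a point per library (its shape gives the library number) and bars for the group mean and SD. In each panel the celastrol points lie above the PBS points, and Bleomycin 2 is the lowest bleomycin library except for Dnaja4.

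Hsp90ab1, the constitutive cytosolic Hsp90, had the highest level per length among the members. Per kilobase of exon, PBS means were 5773 for Hsp90ab1, 3960 for Hspa8, 3878 for Hsp90b1, 1760 for Hspa9, 1619 for Hspd1, 1596 for Hspa5 and 1309 for Hsp90aa1. In value, Hsp90ab1 was 17141 and 17486 in PBS, 17068 to 22031 in bleomycin and 19745 to 24217 in celastrol libraries. Hsp90aa1, the inducible form, was 4917 and 5371 in PBS, 5383, 7122 and 7245 in bleomycin, and 6809, 6234 and 6382 in celastrol libraries. Both cytosolic genes were wholly above PBS in celastrol, but with small changes of 0.30 ± 0.18 (adjusted p = 0.548) and 0.33 ± 0.17 (adjusted p = 0.495). With quantile normalization the Hsp90ab1 change was 0.075. Of the Hsp90aa1 windows 42.8% occur in other genes.

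Ahsa1 (Aha1) activates the Hsp90 ATPase and is the gene chosen as the marker of this set. The gene lies at chr12:87266479-87273998 (mm10, plus strand). It was 1052 and 974 in PBS, 1074, 1369 and 1208 in bleomycin, and 1712, 1388 and 1647 in celastrol libraries. The 3 groups did not overlap and stood in the order PBS, bleomycin, celastrol. The change was 0.64 ± 0.19 in celastrol against PBS (interval 0.21 to 1.07, 1.56-fold, adjusted p = 0.189), 0.26 ± 0.19 in bleomycin against PBS (adjusted p = 1, with a change of 0.17 without Bleomycin 3) and 0.38 ± 0.17 in celastrol against bleomycin (adjusted p = 0.975). That order of group means was found for 27 of 73 members, where 24% of all genes had it, and the reverse order for 15 (23.3%).

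Of 16 Hsp90 cochaperones outside the members, 0 passed in limma. Only 1 was under an unadjusted p of 0.05 against PBS, where 6.82% of all genes were in bleomycin and 12% in celastrol. It was Fkbp5, an immunophilin that glucocorticoids induce, at 880 and 768 in PBS, 1706 to 2424 in bleomycin and 1587 to 3358 in celastrol libraries. The change was 1.38 ± 0.30 in celastrol (adjusted p = 0.0582) and 1.37 ± 0.30 in bleomycin (adjusted p = 0.0833). Its treated libraries were all above PBS and overlapped each other. Cytosolic chaperonin (TRiC) and prefoldin genes, 15 in all, had 0 past the threshold in limma and a median log2 change of 0.36 in celastrol against PBS. At an unadjusted p under 0.05, 5 of them were higher in celastrol, where 6.13% of all genes were. Cct8 had the smallest p, at 0.55 ± 0.17 (adjusted p = 0.194).

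Among the Hsp110 genes, which exchange nucleotide on Hsp70, Hsph1 was 1079 and 1270 in PBS, 1120 to 1348 in bleomycin and 1341, 1815 and 1639 in celastrol libraries. Celastrol was wholly above PBS (0.44 ± 0.20, adjusted p = 0.431) and overlapped bleomycin. Hspa4 was 4374 and 4577 in PBS and within 6158 to 6227 in all 3 celastrol libraries, while bleomycin spanned 4165 to 7034. Hspa4l was 3487 and 4164 in PBS, 2835 to 4414 in bleomycin and 3944 to 4873 in celastrol libraries, and overlapped in all comparisons. Of 16 Hsp70 cofactors outside the members 0 passed in limma. At an unadjusted p under 0.05, 2 were higher and 1 lower in celastrol than in PBS (6.13% and 5.91% of all genes). Bag1, an exchange factor, had the smallest p in celastrol against PBS (0.48 ± 0.18, adjusted p = 0.289).

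Of the class A DnaJ genes, the general partners of Hsp70, Dnaja4 and Dnaja2 lay higher in celastrol than in both other groups. Dnaja4 was 715 and 723 in PBS, 979, 938 and 837 in bleomycin, and 1236, 1154 and 1119 in celastrol libraries. Its groups did not overlap, and its change of 0.70 ± 0.19 in celastrol against PBS (interval 0.28 to 1.12, 1.62-fold) had an adjusted p of 0.133. The gene overlaps Wdr61, with 42% of its windows in common, and use of strand in counting is not given in the sources used here.

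Dnaja2 was 3070 and 3496 in PBS, 3434 to 3923 in bleomycin, and 4289, 5196 and 4688 in celastrol libraries. It was the only member with an unadjusted p under 0.05 in celastrol against bleomycin (0.35 ± 0.15, adjusted p = 0.975), and its change against PBS was 0.52 ± 0.16 (adjusted p = 0.196). Dnaja1, an HSF1 target, was 2219 and 3101 in PBS and 2598 to 3503 in celastrol libraries, which overlap, with a change of 0.21 ± 0.23 that was -0.04 without PBS 2. Dnaja3, the mitochondrial partner of Hspa9, overlapped in every comparison at group means of 557 to 589, unlike Hspa9 itself.

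Of 9 class B genes, leaving out Dnajb9 and Dnajb11 described above, Dnajb6 and Dnajb4 were wholly above PBS in celastrol and in bleomycin. Over all genes, 13.2% were so in celastrol and 12% in bleomycin. Dnajb6, a suppressor of protein aggregation, was 2025 and 2208 in PBS, 2436 to 2878 in bleomycin and 2682 to 3097 in celastrol libraries, with a change of 0.47 ± 0.17 in celastrol (adjusted p = 0.261). Dnajb4 was 1490 and 1507, 1599 to 1860, and 1725 to 2060 in the same order. Dnajb1, the classical heat-inducible partner of Hspa1a, was 953 and 631 in PBS, 663 to 843 in bleomycin and 838 to 1244 in celastrol libraries, overlapping PBS, with a change of 0.36 ± 0.26 (adjusted p = 0.646) that was 0.65 without PBS 2, 0.06 without PBS 3 and 0.19 without Celastrol 2. Its highest library was Celastrol 2, and PBS 2 and Bleomycin 2 were again the highest of their own groups, though by less than for Hspa1a. Dnajb7 and Dnajb3, low and patchy in these libraries, were 0 in at least 1 library each.

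Class C genes share only the J domain and act at chosen sites. Leaving out Dnajc1, Dnajc3 and Dnajc10 of the endoplasmic reticulum, described above, 22 were measured, and they were split, with 12 above and 10 below 0 in celastrol against PBS and a median of 0.04. Dnajc2, a ribosome-associated partner of Hspa14, was 892 and 1309 in PBS, 1187, 2047 and 1891 in bleomycin, and 1776, 2131 and 1924 in celastrol libraries. Celastrol was wholly above PBS and overlapped bleomycin, and the change of 0.84 ± 0.26 in celastrol (1.79-fold, adjusted p = 0.199) was 0.57 without PBS 2. Dnajc9, a histone chaperone, was 518 and 588 in PBS, 705 to 867 in bleomycin and 565 to 882 in celastrol libraries, with bleomycin wholly above PBS (0.50 ± 0.25, adjusted p = 0.859). Dnajc25 was among the lower members, at 516 and 530 in PBS, 372 to 447 in bleomycin and 257 to 410 in celastrol libraries (adjusted p = 0.331 in celastrol against PBS). Dnajc13 and Dnajc15 were wholly higher, and Dnajc19 wholly lower, in celastrol than in PBS. Dnajc21, a cofactor of ribosome maturation, was wholly higher in celastrol (921 to 1259) than in bleomycin (791 to 918), and overlapped PBS.

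Small heat shock proteins hold unfolding proteins without ATP, and several are muscle proteins. Hspb6, of muscle, was 533 and 408 in PBS, 713, 567 and 522 in bleomycin, and 1382, 538 and 867 in Celastrol 2, 3 and 5. Celastrol was wholly above PBS by a narrow margin (538 against 533), with a change of 0.89 ± 0.36 (adjusted p = 0.348) that was 0.55 without Celastrol 2, the library that stood apart. The muscle markers were highest in Celastrol 5, then Celastrol 2, while Hspb6 was highest in Celastrol 2. The part of muscle in the Hspb6 values was not tested.

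Hspb7, of heart and skeletal muscle, was 287 and 90.7 in PBS, 165 to 463 in bleomycin and 145 to 327 in celastrol libraries, and Hspb8, the Bag3 partner, was 2171 and 1558, 1314 to 2664, and 1259 to 2975. Both overlapped in every comparison, with changes in celastrol of 0.55 ± 0.60 and -0.07 ± 0.40, and the sign of the former turned without PBS 3. Hspb2 and Hspb3 were near the floor, with 0 in at least 2 libraries each. Among the 7 genes measured that carry a small heat shock symbol, Hspb6 was the 1 without overlap between celastrol and PBS. Over all genes, 13.2% lay wholly above PBS in celastrol and 13.7% wholly below.

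The group means of both heat shock factors were lower in the treated groups than in PBS, and neither gene passed. Hsf1 was 336 and 382 in PBS, 364, 135 and 245 in bleomycin, and 332, 255 and 254 in celastrol libraries. Hsf2, a developmental factor that pairs with Hsf1, was 2068 and 2518 in PBS, 1999, 1517 and 1723 in bleomycin, and 1368, 1941 and 1618 in celastrol libraries. Celastrol libraries were wholly below PBS for both, by small margins, with changes of -0.36 ± 0.41 (adjusted p = 0.79) and -0.49 ± 0.21 (adjusted p = 0.385), and in bleomycin of -0.64 ± 0.41 and -0.39 ± 0.21 (adjusted p = 1 and 0.913). In bleomycin the Hsf1 change was -0.26 without Bleomycin 3 and -0.97 without Bleomycin 2, and that of Hsf2 was -0.25 without PBS 3. Transcript level does not measure HSF1 activity, which is set largely by its trimerization and phosphorylation.

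Outside the members, 17 measured HSF1 targets and crystallins had 0 past the threshold in limma. At an unadjusted p under 0.05, 4 were higher and 1 lower in celastrol than in PBS (6.13% and 5.91% of all genes). Mrpl18, a mitochondrial ribosome protein that also enters stress translation, had the smallest p (0.81 ± 0.27, adjusted p = 0.229). Of 8 other heat shock factors and regulators 0 passed in limma and 0 were under an unadjusted p of 0.05 in any comparison, and Hsf3, low in all groups, had the smallest p.

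**Figure D4:**
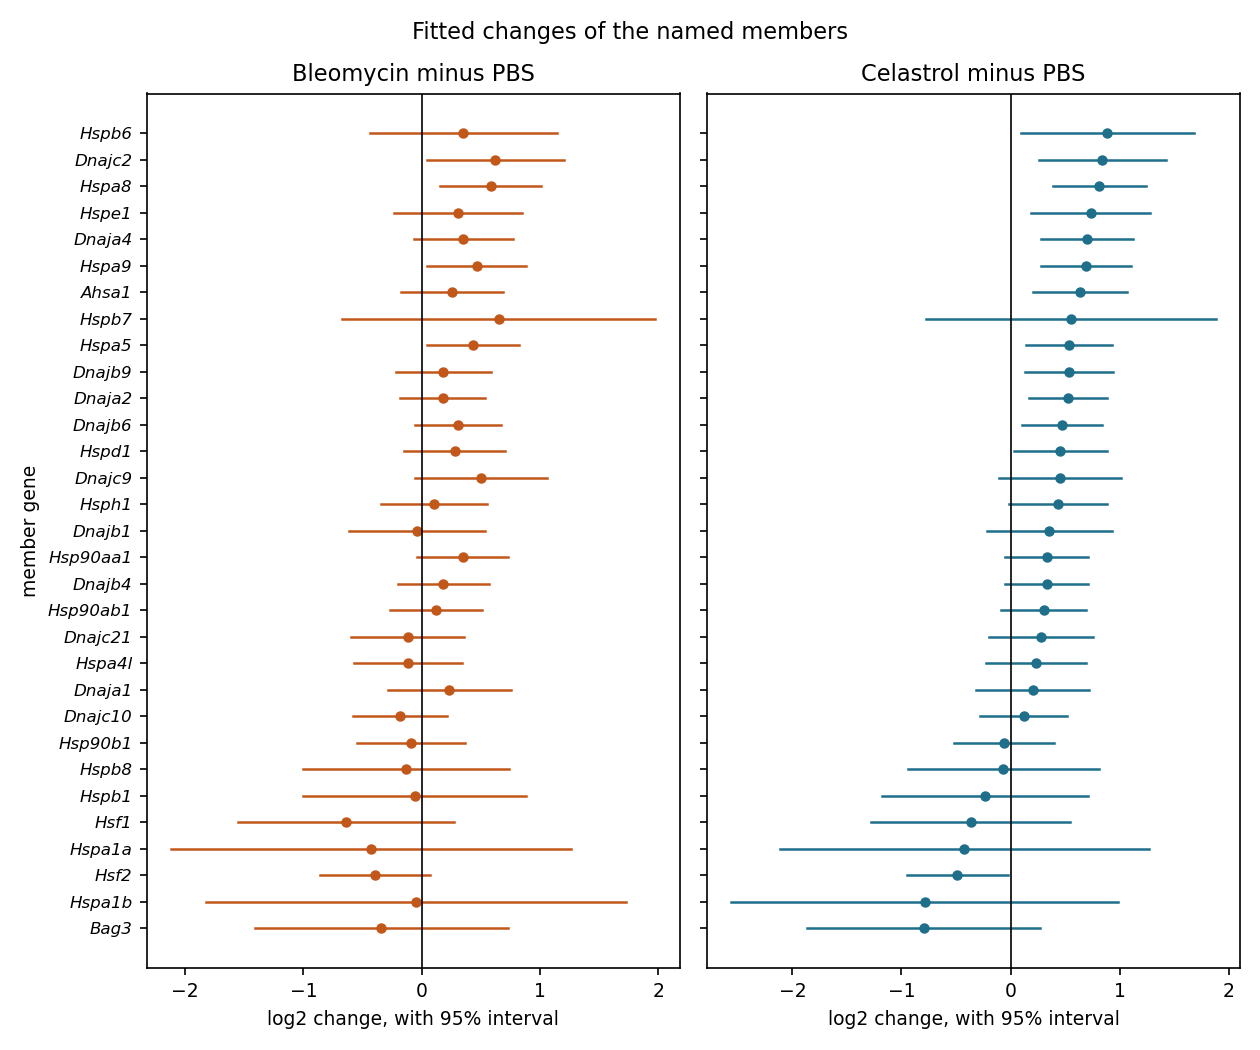
Log2 change with its 95% interval for 31 members in bleomycin against PBS and in celastrol against PBS (points are fitted changes, lines the intervals) from the limma fit. The Hspa8 interval in celastrol runs from 0.39 to 1.24, while that of Hspa1b runs from -2.56 to 0.99 and includes 0.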

How the data were processed

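Estimated gene counts were scaled by the authors with a DESeq2 size factor per library, which gives the deposited normalized signal per gene (source: the table's name and the submitters' processing notes). The notes name Partek 10.0.22, STAR 2.7.3a and mm10. Settings, counter, annotation and strand are not given in the sources used here. Whole reads could not be recovered (58.9% to 67.6% of values below 1000 reads were within 0.03 of a whole number), so depth was estimated from the value of 1 read. Differences were tested in R 4.3.3 with limma 3.58.1, using lmFit and a trended eBayes, on log2(value + 1), with all 8 libraries, no covariate, and genes reaching 10 in 2 or more libraries. All p-values were two-sided and were adjusted by Benjamini-Hochberg over 23185 genes, with a threshold of 0.05 and 95% intervals from 10.61 degrees of freedom. The added 1 shrinks changes of low genes, but a 0 in a single library can enlarge them. Hspbp1, at 0 in Celastrol 2, had means of 76.5 in PBS and 39.1 in celastrol and a fitted change of -2.22. The procedure was tested on simulated data.

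Members named by rule were the 8 with the smallest p per comparison and 23 set by role, and of each other list the gene with the smallest p. Some of these are given as ranges or group means rather than by library. Hspa12b, Hspa14, Hspa4, Dnajc25 and others outside this rule were named after their values were seen. The members and lists were chosen with earlier results of these data known. Windows of 75 bases were counted over GENCODE M21 transcripts, and 70 of 73 member positions matched it. Promoters came from RefSeq GRCm38.p6. Alternatives covered pseudocount, filter, scaling, library weights, the libraries fitted, a replicate block and each library left out.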

Additional observations from a re-analysis of the deposited data

How the results depend on the processing

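No member passed under the alternatives, except Hspa8 in bleomycin against PBS with library weights (1 member) and in celastrol against PBS without Bleomycin 2 (0 to 1 members over single libraries left out). The block on replicate number gave 0 members in every comparison. Numbers 4 and 5 each occur in a single library, so under the block Bleomycin 4 and Celastrol 5 add nothing to the changes. It therefore had little power to call any member. The labels do not say that numbers pair animals, so the numbers were not taken as pairs. Same-numbered libraries had correlations of -0.00485 to 0.203 in their deviations from group means, the highest for PBS 2 with Bleomycin 2. With 2 PBS libraries these deviations mirror each other, so the correlations cannot decide whether numbers are pairs. Under that block Hspa1b had 0.37 in bleomycin against PBS, the same change as without Bleomycin 4.

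The median change of members ranged over single libraries left out from 0.016 to 0.18 in bleomycin and 0.051 to 0.17 in celastrol against PBS. With the same sum in every library it was -0.055 in celastrol against PBS and -0.031 against bleomycin, and without PBS 2 and Bleomycin 2 together, an alternative chosen after seeing the data, it was 0.17 in celastrol against PBS. Of the changes of named members, 948 alternatives kept the direction and side of the threshold, 22 turned in sign and 2 were newly past the threshold. No member passed in the main fit, and the filter settings cannot turn a sign, so the 948 say little about stability.

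In bleomycin against PBS, single libraries left out gave ranges of -1.65 to 0.79 for Hspa1a, -1.38 to 1.28 for Hspa1b and -0.98 to 0.30 for Bag3, and without both libraries Hspa1a was 0.064 and Hspa1b 0.51. In celastrol against PBS the ranges were -1.65 to 0.80 for Hspa1a, -2.12 to 0.54 for Hspa1b, -0.82 to 0.35 for Hspb1, -0.45 to 0.17 for Hspb8, -0.035 to 0.45 for Dnaja1 and -0.27 to 1.38 for Hspb7. Without both libraries they were 0.80 for Hspa1a, 0.54 for Hspa1b, 0.35 for Hspb1, 0.17 for Hspb8 and -0.035 for Dnaja1, and with library weights Hspb8 was 0.11. The cause was not tested beyond these exclusions. Both the 2 PBS libraries and the spread between libraries limit precision, and Hspb2, Hspb3, Dnajb3 and Dnajb7 lie near the floor of detection.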
